A study of Homo sapiens with 6 samples.

Results

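The stretch of chromosome 15 that holds SMAD6 and SMAD3 was described from 100 kb before the start of SMAD6 to 100 kb after the end of SMAD3, at chr15:66602236-67295173 of hg38, 692.9 kb in all. Of the 171517 peaks in the table of read counts, 93 had their centre in this window, and no peak crossed its edges. The window was picked because many of its peaks closed, so every change given for its peaks describes the same contrast that chose it, carries no p-value and is no evidence by itself. The libraries came from an assay for transposase-accessible chromatin (ATAC-seq) on H9, a human embryonic stem cell line in wide use, held as naive embryonic stem (nES) cells in tt2iLGö medium. This medium holds inhibitors of MEK, GSK3 and protein kinase C together with leukaemia inhibitory factor. In both groups the cells had been taken off their mouse feeder layer and plated on laminin. The 3 control libraries are labelled DMSO, while the protocol gives their dose as 0 mM. The other 3 came from cells given 4 mM dimethyl α-ketoglutarate (dm-αKG), a cell-permeable form of the metabolite α-ketoglutarate, for 24 h. The study states that the ATAC-seq was performed once, with biological replicates, here of 1 cell line.

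SMAD proteins carry signals from TGF-β family receptors at the cell surface to the genome. SMAD3 is phosphorylated by the receptors for TGF-β, activin and NODAL, joins SMAD4 and enters the nucleus, where the complex binds short CAGA-like boxes in DNA and acts with partner factors such as FOXH1. SMAD6 is an inhibitory SMAD that mainly restrains the BMP branch of the family, and it is itself a target gene of BMP signals, so it acts in a feedback loop. Activin and NODAL signals help keep human pluripotent cells undifferentiated.

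Counts in peaks lay between 13025674 and 26828622 per library, with TMM factors between 0.991 and 1.01. Genome-wide, the correlation r of library pairs was 0.942 to 0.966 inside a treatment and 0.911 to 0.928 across treatments. The promoters of KLF17, DPPA5, NANOG and POU5F1, pluripotency markers expected in nES cells, had 271.3 to 520.6 normalized counts in control. None of the table's peaks lay at the DPPA3 promoter. Promoter peaks also stood at GATA3 and CDX2, GATA4, SOX17 and PDGFRA, and the fibroblast genes COL1A1, COL1A2 and TWIST1, at 140.4 to 262.6, so an open promoter alone did not tell these cell types apart. In bulk libraries, a site open in fewer cells and a site less open in each cell cannot be told apart.

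Both genes lie on the plus strand. SMAD6 (ENSG00000137834) spans chr15:66702236-66782849 and SMAD3 (ENSG00000166949) spans chr15:67063763-67195173, with long non-coding RNAs and pseudogenes between them. AAGAB and IQCH, which share a promoter, follow SMAD3. Numbered along the chromosome from peak 1 to peak 93, 53 peaks lay in introns, 26 between genes and 14 overlapped exons. Peak widths ran from 200 to 445 bp with a median of 203 bp, and raw counts per peak and library from 4 to 779.

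Sequences are shown for the peaks on which the description turns, 200 bases around each peak centre on the plus strand of hg38, written 5′ to 3′. Capitals mark letters that match a searched motif on either strand. Peaks 83 and 48 were the less accessible peaks with the highest control counts, peak 43 lies in the same cluster as peak 48, peak 60 fell most, and peak 64 was the peak that opened. The capitals are GGAATG (TEAD) in peaks 43 and 48, GGAATG and a FOXH1 match in peak 83, a TEAD match and then a CTCF match overlapping KLF matches in peak 60, and an AP-1 match overlapping a TEAD match in peak 64.
Peak 83 (chr15:67149628-67149827): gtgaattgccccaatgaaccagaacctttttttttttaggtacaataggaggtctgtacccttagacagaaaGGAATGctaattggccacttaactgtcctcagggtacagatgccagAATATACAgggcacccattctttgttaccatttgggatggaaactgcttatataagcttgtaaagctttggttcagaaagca
Peak 48 (chr15:66835029-66835228): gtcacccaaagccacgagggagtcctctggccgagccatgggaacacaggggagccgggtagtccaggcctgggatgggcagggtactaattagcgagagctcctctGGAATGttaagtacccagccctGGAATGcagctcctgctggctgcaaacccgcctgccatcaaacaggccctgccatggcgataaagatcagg
Peak 43 (chr15:66828121-66828320): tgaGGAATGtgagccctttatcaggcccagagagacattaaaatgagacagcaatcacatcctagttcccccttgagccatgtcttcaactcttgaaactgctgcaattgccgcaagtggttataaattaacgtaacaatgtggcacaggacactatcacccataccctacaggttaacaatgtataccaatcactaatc
Peak 60 (chr15:66892568-66892767): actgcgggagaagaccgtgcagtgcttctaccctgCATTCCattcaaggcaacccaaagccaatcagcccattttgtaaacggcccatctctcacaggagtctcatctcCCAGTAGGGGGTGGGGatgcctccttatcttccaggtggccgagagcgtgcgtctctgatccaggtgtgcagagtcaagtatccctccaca
Peak 64 (chr15:67024468-67024667): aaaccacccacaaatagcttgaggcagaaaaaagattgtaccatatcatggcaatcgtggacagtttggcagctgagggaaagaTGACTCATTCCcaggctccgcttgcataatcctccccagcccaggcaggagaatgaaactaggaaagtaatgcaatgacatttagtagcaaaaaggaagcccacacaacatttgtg

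The SMAD6 promoter is shown because it lies at the stronger promoter peak of the 2 genes and because of a motif it holds. The 250 bases before the gene start, chr15:66701986-66702235 on the plus strand, come from RefSeq (GRCh38.p14) and have a GC content of 68.0%. Capitals mark KLF matches and, close to the gene start, the SMAD palindrome GTCTAGAC.
SMAD6 promoter: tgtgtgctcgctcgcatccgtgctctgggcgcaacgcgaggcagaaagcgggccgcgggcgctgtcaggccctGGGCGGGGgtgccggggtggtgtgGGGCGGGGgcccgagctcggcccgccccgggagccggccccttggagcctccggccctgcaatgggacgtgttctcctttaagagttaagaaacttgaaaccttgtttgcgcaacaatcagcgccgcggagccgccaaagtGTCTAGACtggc

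Less accessible peaks were called at an adjusted p below 0.01 and a log2 fold change (dm-αKG over control) below −1, and more accessible peaks above 1, which is a 2-fold change. In the window 10 of 93 peaks (10.75%) were less accessible, beside 1.96% of all peaks, and 1 (1.075%) was more accessible, beside 0.782% of all peaks. Since the window was chosen on these calls, nothing is read from that difference. At an adjusted p below 0.01 with no fold threshold, 17 of the 93 peaks were lower, beside 6.54% of all peaks. At the same setting 1 of the 93 was higher, beside 3.34% of all peaks. All dm-αKG libraries lay below all control libraries at 32 peaks (34.41%, beside 16.9% of all peaks) and above them at 8 (8.602%, beside 15.5%). Of the 93 peaks, 60 had a negative fold change, and the median log2 fold change was −0.19, beside 0.01 over all peaks.

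**Figure D1:**
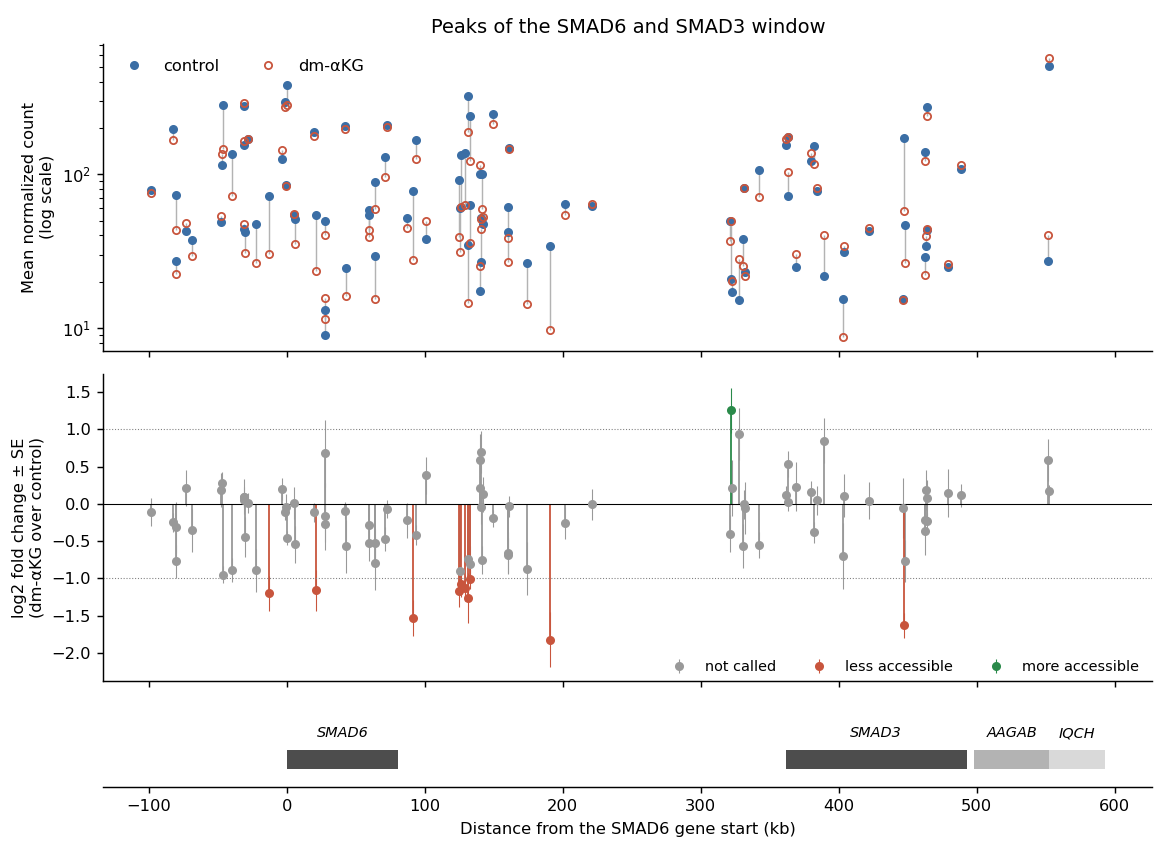
Position of each of the 93 peaks as distance from the SMAD6 gene start in kb, with mean normalized counts in control and dm-αKG on a log axis (top, n = 3 each), the log2 fold change with its standard error (middle) and gene spans (bottom). The red points between 125.1 and 132.9 kb form the dense group of less accessible peaks after SMAD6, while the green point at 322.3 kb is the peak that opened.

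Summed over all 93 peaks, the normalized counts of the control libraries were 9055, 9060 and 9146 and those of the dm-αKG libraries were 7601, 7593 and 7902. The groups did not overlap, and the treated sum was 84.72% of control. The 10 less accessible peaks summed to 1024, 1094 and 1035 in control and to 448.9, 416.9 and 485.0 with dm-αKG, 42.84% of control. The other peaks without a call, 82 in number, still summed to 89.81% of control, at 8016, 7947 and 8082 against 7114, 7129 and 7354. So part of the lower sum lay outside the called peaks.

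The loss was uneven along the window. It was deepest in the first 60 kb after the end of SMAD6, where 6 of 15 peaks were less accessible and the median log2 fold change was −0.81. There the control libraries summed to 1547, 1640 and 1584 and the dm-αKG libraries to 1043, 908.2 and 1046, 62.83% of control. In the rest of the stretch up to SMAD3, 1 of 19 peaks was less and 1 more accessible, and the sum was 87.28% of control. The 21 peaks before SMAD6 summed to 85.55% of control and the 15 peaks in SMAD6 to 84.04%, each with 1 less accessible peak. The 21 peaks in SMAD3 summed to 92.6% of control, and their median log2 fold change was 0.05, with 1 less accessible peak. Past SMAD3 both peaks were higher in every dm-αKG library, with sums of 534, 543.4 and 527.2 in control and 600.2, 592.7 and 652.6 with dm-αKG. Peak 93 held most of these sums, and neither peak was called. Of all peaks, 15.5% lay above control in every dm-αKG library.

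**Figure D2:**
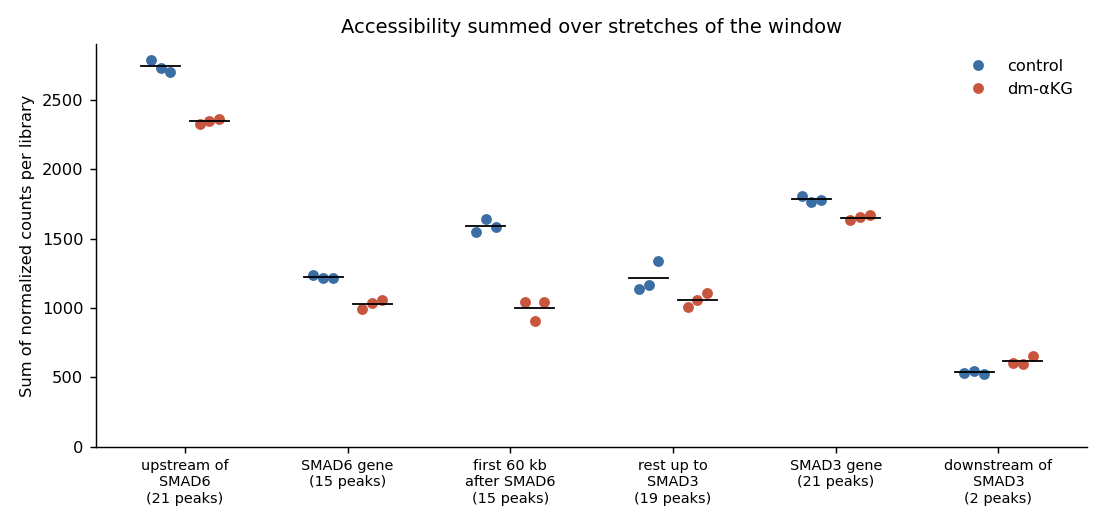
Sum of normalized counts per library over the peaks of each stretch of the window (points, 3 control and 3 dm-αKG libraries, and the mean as a line). Control and dm-αKG libraries are furthest apart, in proportion, in the 15 peaks of the first 60 kb after SMAD6, at 62.83% of control. That cut was made with earlier results known. The groups lie in the opposite order past SMAD3, where no peak was called.

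Beyond the window, in the 500 kb before it, 1 of 44 peaks was less accessible, and in the 500 kb after it 2 of 29. Over the rest of chromosome 15, 106 of 5443 peaks (1.947%) were less and 27 more accessible, and the median log2 fold change was 0.02. At the edges, peak 1 had 79.44 ± 21.81 normalized counts in control and 75.41 ± 4.994 with dm-αKG (SD, n = 3), and the nearest peak before the window, at chr15:66592650-66592849, had 45.62 ± 2.629 and 66.98 ± 6.024. The nearest peak after the window, at chr15:67303852-67304051, had 12.11 ± 7.492 and 27.28 ± 5.08.

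The cluster after SMAD6 was taken as the longest run of neighbouring peaks that were each lower at an adjusted p below 0.05 (10.5% of all peaks), so that all its peaks are lower by definition. It held 8 peaks, 41 to 48, within 8.0 kb (chr15:66827244-66835235), between the pseudogene ENSG00000270490 and the long non-coding RNA ENSG00000277152. Their log2 fold changes ran from −0.74 to −1.27, and 5 met both thresholds. Summed over the 8 peaks, the control libraries had 1062, 1089 and 1103 normalized counts and the dm-αKG libraries 590.9, 499.0 and 586.7, 51.53% of control. Peak 46 (chr15:66833448-66833651) was the most open of them in control. It had 339.0, 312.4 and 315.8 in control and 219.4, 155.2 and 196.1 with dm-αKG, for a log2 fold change of −0.74 that did not reach the fold threshold.

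Peak 48 (chr15:66835022-66835235) had 251.3, 225.2 and 249.0 normalized counts in control and 104.0, 116.7 and 148.2 with dm-αKG. The lowest control library was above the highest treated one, and the log2 fold change was −1.01 ± 0.13 (SE). This value sits at the fold threshold: the call was lost in 7 of 13 alternative fits, with −0.87 as the value nearest 0, among them DESeq2 and the fits that left out control replicate 1 (−0.97) or 3 (−0.99), or dm-αKG replicate 1 (−0.87) or 2 (−0.99). Peak 44 (chr15:66830940-66831139) had 134.2, 141.4 and 136.0 in control and 60.24, 56.44 and 73.34 with dm-αKG, which is a log2 fold change of −1.13 ± 0.17 (SE). Its control libraries lay close to each other, and it kept its call in every fit run.

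Peak 43 (chr15:66828121-66828321) had 127.0, 139.7 and 132.4 in control and 73.14, 53.88 and 56.88 with dm-αKG, for a log2 fold change of −1.08 ± 0.17 (SE). Peak 41 (chr15:66827244-66827448) had 76.02, 92.07 and 108.1 in control against 51.63, 17.96 and 47.90 with dm-αKG (−1.17 ± 0.22, SE). In peak 41 dm-αKG replicate 2 stood far below the other treated libraries. Without that library the log2 fold changes were −0.86 for peak 41 and −0.99 for peak 43, and neither was called. Peak 45 (chr15:66833185-66833384) was the weakest of the cluster, with 30.41, 40.28 and 34.01 in control and 13.62, 16.68 and 13.47 with dm-αKG (−1.27 ± 0.34, SE). It was not called with DESeq2 (−1.27), nor without control replicate 2 (−1.13) or dm-αKG replicate 1 (−1.20).

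Peak 38 (chr15:66793412-66793611), between SMAD6 and the cluster, had 76.92, 92.07 and 64.38 normalized counts in control and 25.10, 17.96 and 40.41 with dm-αKG. All treated libraries were below all control libraries, and the log2 fold change was −1.53 ± 0.24 (SE). Peak 60 (chr15:66892568-66892767) showed the largest fall of the window, from 37.56, 32.06 and 32.80 to 8.605, 11.55 and 8.981, a log2 fold change of −1.82 ± 0.37 (SE) and 28.44% of control. It lies far from coding genes, 171095 bp before the SMAD3 start, which is the nearest start of a coding gene. Its counts are among the lower ones of the window, so its fold rests on few reads.

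Around SMAD6 itself, peak 17 (chr15:66688899-66689103), 13235 bp before the gene start, had 54.56, 84.67 and 78.95 normalized counts in control and 36.57, 32.07 and 22.45 with dm-αKG. Every treated library was lower, with a log2 fold change of −1.20 ± 0.24 (SE). Peak 25 (chr15:66723254-66723453), in a SMAD6 intron, had 53.66, 70.69 and 37.65 in control and 28.68, 29.50 and 11.97 with dm-αKG (−1.16 ± 0.27, SE). Its control libraries spread widely, and it lost its call with DESeq2 (−1.18), and without control replicate 2 (−0.91) or dm-αKG replicate 3 (−0.92).

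The SMAD6 promoter, peak 21 (chr15:66702095-66702308), had 368.5, 421.7 and 366.8 normalized counts in control and 277.5, 257.8 and 314.3 with dm-αKG. The groups did not overlap, and the means were 385.7 ± 31.21 and 283.2 ± 28.67 (SD, n = 3), 73.44% of control. Its log2 fold change of −0.46 ± 0.09 (SE) was far from the fold threshold. Among promoter peaks of all protein-coding genes, 2.78% were lower and 3.67% higher at an adjusted p below 0.01. Peak 19 (chr15:66700937-66701337), also close to the SMAD6 start and among the 3 peaks of highest mean count over all 6 libraries, had 295.2 ± 34.74 and 276.4 ± 45.07 (SD, n = 3), and its groups overlapped.

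Before SMAD6, peak 9 (chr15:66656086-66656297), in an intron of the long non-coding RNA LINC01169, came close to the fold threshold without passing it. It had 314.8, 256.5 and 273.3 normalized counts in control and 146.3, 145.0 and 145.2 with dm-αKG, which is a log2 fold change of −0.95 ± 0.12 (SE). The treated libraries were nearly equal and far below the lowest control library. Peaks 9 and 46 are named after their values were seen, as peaks of high count that fell short of the fold threshold.

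In SMAD3, which encodes the receptor-activated SMAD of the window, 1 of 21 peaks was less accessible, and it was a strong one. Peak 83 (chr15:67149616-67149840), in an intron 86.0 kb after the first SMAD3 start, had 182.5, 175.9 and 161.5 normalized counts in control and 47.33, 64.14 and 61.37 with dm-αKG. Treated libraries held 33.24% of the control mean, a log2 fold change of −1.63 ± 0.17 (SE), and the call was kept in every fit run. Its neighbour peak 82 (chr15:67149088-67149287) was weak and its groups overlapped, with 18.78, 13.15 and 14.58 in control and 13.62, 14.11 and 17.96 with dm-αKG. On the other side and closer by, peak 84 (chr15:67150021-67150243) had 35.78, 41.92 and 61.95 in control and 27.25, 35.92 and 16.46 with dm-αKG. Its groups overlapped by 1 library, and its log2 fold change was −0.76 ± 0.28 (SE), lower at an adjusted p below 0.05 but not called. Peaks 82 and 84 are given as the neighbours of peak 83, chosen after values were seen.

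SMAD3 has several annotated starts, and none of the peaks at them passed the call. Peak 88 (chr15:67165938-67166156), the highest of them, lies at an internal start. It had 296.9, 293.5 and 236.9 normalized counts in control and 216.6, 261.7 and 241.0 with dm-αKG, so the groups overlapped, and the log2 fold change was −0.23 ± 0.11 (SE). Near the first start, peak 71 (chr15:67064215-67064417), named after its values were seen, had 146.7, 163.6 and 157.9 against 163.5, 170.6 and 175.1. Peak 72 (chr15:67065285-67065484), also named after its values were seen, lies 217 bp from a SMAD3 start. It is closer, at 116 bp, to the start of ENSG00000259347, a long non-coding RNA on the opposite strand. Peak 72 had 72.45, 72.34 and 71.66 in control and 114.7, 94.93 and 100.3 with dm-αKG. It was higher in every treated library, with a log2 fold change of 0.53 ± 0.17 (SE), and stood in the control peak list alone. Peak 73 (chr15:67065548-67065751), at a SMAD3 start, is the highest peak within 1 kb of the ENSG00000259347 start. It had 178.9, 179.2 and 165.2 against 207.2, 168.0 and 148.2. ATAC-seq reads carry no strand, so accessibility at peaks 72 and 73 cannot be assigned to either gene.

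The peak that opened, peak 64 (chr15:67024468-67024667), lies in an intron of ENSG00000259347, before SMAD3. It had 14.31, 18.91 and 29.15 normalized counts in control and 38.72, 47.46 and 62.87 with dm-αKG, all treated libraries above all control libraries. The log2 fold change was 1.25 ± 0.30 (SE), but the call was lost without control replicate 1 (1.05) or dm-αKG replicate 3 (1.07). At the far end, peak 93 (chr15:67254634-67254851), the shared promoter of AAGAB and IQCH and the peak with the highest counts, had 508.9, 519.5 and 494.4 in control and 558.6, 555.5 and 610.7 with dm-αKG (0.17 ± 0.08, SE).

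**Figure D3:**
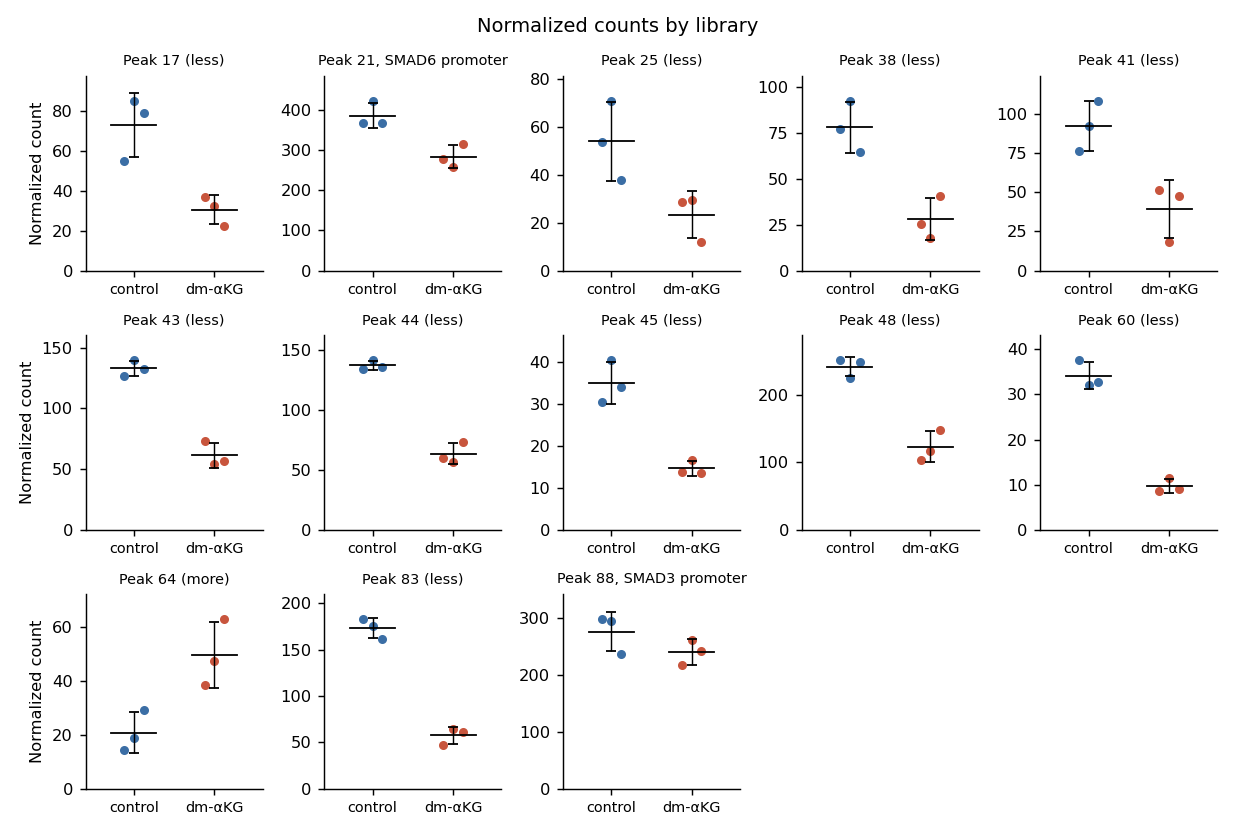
Normalized counts of each library (points) with mean and SD (lines, n = 3 per group) for the 11 called peaks and the promoter peaks of SMAD6 and SMAD3, on linear axes from 0. The groups stay apart at every called peak and at the SMAD6 promoter, and overlap at SMAD3 peak 88, where control replicate 3 had 236.9.

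The deposited peak lists, 1 for each treatment, show the same sites as called peaks or not. Of the 93 peaks, 66 were in both lists, 20 in the control list alone and 7 in the dm-αKG list alone. The shares over all peaks are not given, so nothing is read from these counts. All 10 less accessible peaks were in the control list and 5 of them were also in the dm-αKG list; peaks 25, 38, 44, 45 and 60 were not. Peak 64 was in the dm-αKG list alone, with a fold enrichment of 11.70 over background. The counted peaks are the lists merged, so a site open mainly in 1 group could enter through the list of that group. Membership thus follows in part from how peaks were selected, and is no separate evidence of closing or opening. At peak 83, which was in both lists, the authors' fold enrichment was 10.65 in the control list and 7.731 in the dm-αKG list. At peak 17 it was 17.74 and 9.024, and at the SMAD6 promoter 11.11 and 9.015. Each list was called on separate pipeline runs of different depth, so these values are set side by side without a test.

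Position and base content were compared between the 10 less accessible peaks and the other 83, a split that rests on the calls that chose the window. The GC content of the 10 had its median at 47.0%, against 57.0% for the other 83 peaks. None of the 10 was within 1 kb of an annotated transcript start, against 11 of the 83. Of the 10, 8 were intergenic and 2 intronic, whereas 18 of the 83 were intergenic. Their median control count was 84.93 against 58.99. Of the 10, 5 lie in the single intergenic cluster of peaks 41 to 48. Values for less accessible peaks of the whole table are not given, so nothing here is read as particular to this window. GC content and count moved with the call, and their part in it was not tested.

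The motif search covered 10 motifs, read on both strands, in 200 bp around each peak centre. GGAATG, bound by TEAD factors, was found in 4 of the less accessible peaks (43, 48, 60 and 83), and in 26 of the 93 peaks, beside 14.6% of all 171517 peaks. Peak 48 held it at 2 places. The KLF motif CCNCNCCC was in 4 (25, 44, 45 and 60), beside 47.3% of the window and 44.2% of all peaks. The AP-1 motif TGANTCA, bound by JUN and FOS, was in 2 (17 and 25) and in the opening peak 64. It was in 8.6% of the window and 6.33% of all peaks. The CAGA box CAGACA, to which SMAD3 and SMAD4 bind, was in 2 (25 and 45), beside 20.4% of the window and 14.9% of all peaks. The FOXH1 motif TGTNNATT was in peak 83, beside 12.9% of the window and 7.68% of all peaks. CTCF matches, with up to 1 mismatch, were in peak 60, beside 10.8% of the window and 10.6% of all peaks. The OCT–SOX composite motif (up to 2 mismatches), the octamer ATGCAAAT and the SOX motif CCATTGT, which the pluripotency factors OCT4 and SOX2 bind, were in 0 of the 10, beside 1.03%, 2.28% and 2.7% of all peaks. Peaks 38 and 41 held none of the motifs. A match is a description of letters and not of binding.

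The SMAD palindrome GTCTAGAC was in 1 of the 93 peaks, peak 21 at the SMAD6 promoter, and in 0.163% of all peaks. In the RefSeq promoter printed above it stands just before the gene start, and 64 of 35116 RefSeq promoters of that length (0.182%) hold it. KLF matches, of which the SMAD6 promoter has 2, are in 53.4% of those promoters.

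The 34 other genes of the pathway, on a list of SMADs, ligands, receptors, partners and targets, were not used to choose the window. All 34 had a promoter peak, with log2 fold changes from −0.40 to 0.23 and a median of 0.02; 1 was lower and 0 higher at an adjusted p below 0.01 by edgeR's quasi-likelihood test, and 3 had an unadjusted p below 0.05. Over the promoter peaks of all protein-coding genes the shares were 2.78% lower, 3.67% higher and 26.2% with an unadjusted p below 0.05. The lower one was GDF3, a ligand of the NODAL branch, with 375.6, 406.9 and 388.7 normalized counts in control and 294.0, 273.2 and 326.3 with dm-αKG at chr12:7694683-7694890. Its log2 fold change was −0.40 ± 0.09 (SE, adjusted p = 0.000806), and it did not pass without control replicate 2 or dm-αKG replicate 2.

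Within 100 kb of these 34 genes, 23 of 1055 peaks (2.18%) were less accessible and 2 (0.1896%) more accessible, with a median log2 fold change of 0.02. The shares over all peaks were 1.96% and 0.782%. A peak is counted for each gene it lies within 100 kb of, and whether another gene lies closer was not examined. The count of more accessible peaks rose to 6 when control replicate 3 was left out, to 4 when dm-αKG replicate 2 was, and to 5 when dm-αKG replicate 3 was. By role, 7 of 168 peaks near the other SMADs were less accessible, 6 of 180 near ligands, 6 of 247 near receptors, 3 of 271 near partners and regulators, and 1 of 189 near targets. At least 1 less accessible peak stood near 16 of the 34 genes, beside 30.8% of all protein-coding genes. This count by gene was not matched for the number of peaks around each gene, so nothing is read from it.

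Of the SMADs, SMAD7, the inhibitory SMAD that restrains both branches, had 4 less accessible peaks of 66 within 100 kb. The strongest, at chr18:48959890-48960095, had 437.4, 450.5 and 474.9 normalized counts in control and 190.7, 197.6 and 224.5 with dm-αKG (log2 fold change −1.17 ± 0.10, SE, adjusted p = 2.94e-17, edgeR). Each treated library there held less than any control library. The other less accessible peaks within 100 kb of SMAD7 had log2 fold changes from −1.03 to −1.18, with adjusted p from 6.48e-05 to 0.00637 (edgeR). Its promoter, by contrast, had 200.3 ± 34.78 in control and 234.3 ± 34.74 with dm-αKG (SD, n = 3), a difference that did not pass (log2 fold change 0.21, adjusted p = 0.225, edgeR).

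SMAD4, the common partner of the receptor-activated SMADs, had 1 less accessible peak of 20 within 100 kb. It lay at chr18:51017262-51017473 (87.59 ± 8.846 to 36.95 ± 9.475, SD, n = 3, adjusted p = 4.47e-06, edgeR). Among the receptor-activated SMADs of the BMP branch, SMAD5 had 1 of 23, at chr5:136202811-136203039 (163.1 ± 20.26 to 77.64 ± 16.36, adjusted p = 9.28e-08), and SMAD9 had 1 of 22, at chr13:36762328-36762532 (53.77 ± 5.261 to 17.21 ± 5.157, adjusted p = 1.02e-05). SMAD1 had 0 of 16 and SMAD2, which shares the activin and NODAL branch with SMAD3, had 0 of 21. The promoters of these 5 genes had log2 fold changes from −0.18 (SMAD9) to 0.08 (SMAD2), and none passed.

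Near the ligand genes, a peak within 100 kb of BMP2 (chr20:6767686-6780246) lay outside the gene, at chr20:6812887-6813328. It had 186.0, 185.8 and 193.1 normalized counts in control and 75.3, 60.29 and 71.85 with dm-αKG (log2 fold change −1.43 ± 0.15, SE, adjusted p = 2.86e-12, edgeR). Of the fallen peaks within 100 kb of BMP4, the stronger went from 91.01 ± 8.356 to 29.64 ± 2.277 (SD, n = 3, adjusted p = 1.86e-08, edgeR). Within 100 kb of GDF3 (chr12:7689784-7695775), 2 neighbouring peaks fell, with log2 fold changes of −1.57 and −1.29. They lie outside the gene, at chr12:7750832-7751037 and chr12:7751103-7751302. Another at chr12:7716498-7716697, also outside the gene, rose from 43.55 ± 3.965 to 89.48 ± 6.191 (adjusted p = 4.65e-05, edgeR). Genes closer to these peaks were not looked for. Of the receptors, BMPR2 had 2 less accessible peaks within 100 kb, with log2 fold changes of −1.10 and −1.11, and BMPR1A had 1 (−1.02). ACVR1 had 2 (−1.07 and −2.26) and TGFBR1 had 1 (−1.17), and the ligand NODAL had 1 (−1.83).

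Among regulators, SKI, a co-repressor that binds SMAD complexes, had 1 less accessible peak, from 230.0 ± 20.06 to 87.05 ± 18.64 (SD, n = 3, adjusted p = 1.22e-12, edgeR). ZFYVE9, which brings SMADs to the receptor, had 1 that fell (−1.69) and 1 that rose (1.61), and SKIL had 1 that fell (−1.23). Within 100 kb of ID1, a BMP target, 1 peak outside the gene fell, from 206.5 ± 24.89 to 91.7 ± 12.67 (adjusted p = 2.74e-10, edgeR).

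**Figure D4:**
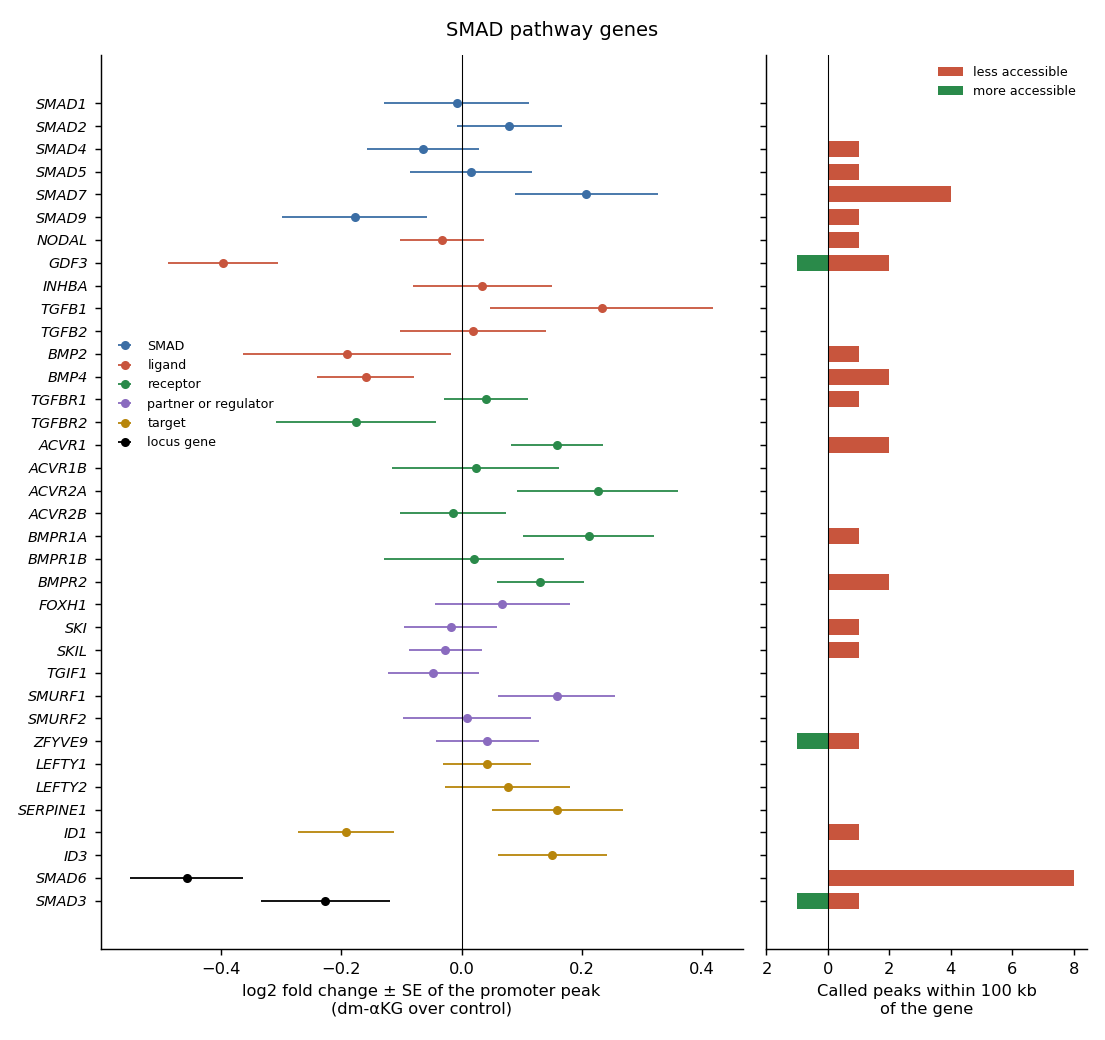
Log2 fold change of the promoter peak with its standard error (left) and number of called peaks within 100 kb of the gene (right) for the 34 pathway genes and, in black, SMAD6 and SMAD3. Promoter changes stay between −0.46 and 0.23, and SMAD6 with 8 and SMAD7 with 4 have the most less accessible peaks of the genes drawn.

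Within 100 kb of SMAD6 alone, 8 of 59 peaks (13.56%) were less accessible, and within 100 kb of SMAD3, 1 of 31 (3.226%). By this count, over 19876 protein-coding genes with a median of 0, 2 genes had more less accessible peaks than SMAD6. These were VWF and CD9, whose surroundings overlap, with 12 of 65 and 12 of 66 peaks. DAB1 had as many as SMAD6, with 8 of 78 peaks over 1752.0 kb. Then 8 genes had 7 each, and of these TDGF1, the NODAL co-receptor also called CRIPTO, with 7 of 34, and ZBED1, with 7 of 37, had the highest shares. As a larger surrounding holds more peaks, the order is a description of counts.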

How the data were processed

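H9 nES cells were grouped by the treatment in the labels, with 3 control and 3 dm-αKG ATAC-seq libraries. The authors ran the ENCODE ATAC-seq pipeline for each treatment: adapters were trimmed, read pairs mapped to hg38 (Bowtie 2) and alignments filtered. MACS2 peaks of the replicates were selected by the irreproducible discovery rate. The lists as deposited by the authors hold a score, a ratio of signal to background as a fold, p-values and q-values as −log10, and a summit offset, and served only for membership and fold enrichment. The authors truncated peaks to 200 bp, merged both lists and deposited raw counts per peak and library (bedtools 2.28.0).

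Counts were fitted over all 171517 peaks with edgeR 4.0.16 in R 4.3.3 (TMM, quasi-likelihood test, treatment as the only term, Benjamini-Hochberg adjustment). Normalized counts are at the mean scaled library size, and a standard error is the size of the log2 fold change over the root of F. Alternatives were DESeq2 1.42.0 (the study's tool), limma-voom 3.58.1, RLE factors, total counts, loess offsets, a minimum of 10 counts, leaving out each library, a replicate block and other window edges. Scripts were tested on simulated counts.

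Peaks belonged to the window by their centre, with genes from GENCODE release 44. Named were called peaks, promoter peaks (the highest within 1 kb of a start), the 3 highest peaks and edge peaks. Of 13 genes starting in the window, 8 had no promoter peak. Pathway genes were named where a peak passed, at most 12 by smallest adjusted p, plus the other SMADs. The remaining genes near which a peak was called are given with their fold changes only. The genes most like the locus were the 5 with the most less accessible peaks within 100 kb, ties ordered by share. The window, lists and rules were chosen with earlier results of these data known.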

Additional observations from a re-analysis of the deposited data

How the results depend on the processing

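The counts of the window depended most on the threshold. With no fold threshold, 25 peaks were lower and 4 higher at an adjusted p below 0.05, and 17 were lower at 0.01, against 10 and 1. Under other normalizations and tools the count of less accessible peaks lay between 7 (DESeq2, or at least 10 counts in every library, which kept 84 of 93 peaks) and 11 (limma-voom), and leaving out 1 library gave 8 to 10 less and 0 to 1 more accessible peaks. The more accessible peak was lost when control replicate 1 or dm-αKG replicate 3 was left out. The median log2 fold change of −0.19 became −0.12 with at least 10 counts, and lay between −0.18 and −0.14 without 1 library. With window edges at the genes, or at 50 or 200 kb, 9, 10 and 10 peaks were less accessible. Near the pathway genes, the 23 less accessible peaks became 117 and 81 with no fold threshold (at 0.05 and 0.01), and 18 to 25 without 1 library. The 2 more accessible peaks became 1 with DESeq2, 4 with limma-voom, 1 with at least 10 counts, 80 and 34 with no fold threshold, and 2 to 6 without 1 library. The 1 lower promoter peak became 0 to 1 without 1 library. Over the whole table, 3365 less and 1342 more accessible peaks became 18047 and 12743 (0.05) or 11213 and 5728 (0.01), the latter 1342 became 793 with DESeq2, and without 1 library the counts were 2771 to 3827 and 1043 to 1462. Libraries of equal replicate number showed no shared deviation: deviations from the group means correlated with r of −0.0157, −0.000899 and 0.0134. This does not settle whether libraries of equal number were made together. A replicate block gave 10 less and 1 more accessible peaks in the window and 3297 and 1304 in the whole table. Over the named peaks, 201 values stayed on their side of the thresholds and 17 lost a call, and no called peak changed direction. DESeq2 gave no adjusted p for 6652 peaks, 4 of them in the window. Causes were not tested.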
